A study of Mus musculus with 4 samples.

Results

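The clustered histone genes of the mouse were described in microglia, the resident macrophages of the brain, after whole-brain irradiation. Members were all genes whose symbol starts with Hist1h, Hist2h, Hist3h or Hist4h, which gave 69 of the 27998 gene identifiers in the count matrices. The name gives the cluster, the histone family and the copy, so that Hist1h1c is a linker histone H1 gene of the Hist1 cluster. By the family in the symbol, 6 members are H1, 19 H2A, 19 H2B, 12 H3 and 13 H4 genes, among them Hist1h2al, which is annotated as a processed pseudogene. The 69 identifiers carry 68 symbols, because Hist2h2bb stands under 2 identifiers, of which 1 is annotated as a long non-coding RNA that overlaps the coding copy.

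The study profiled single cells with droplet sequencing (10x Genomics Chromium) in 4 libraries, each a pool of 4 C57BL/6 mice. The irradiated groups received 8 Gy to the whole brain as a single dose at postnatal day 21, and the sham groups received none. Cells came from sham and from irradiated mice at 6 h and at 1 week, with 1 library for each of these 4 groups. The cells are labelled microglia from brain, the design text speaks of hippocampal microglia, every group carries the age label of postnatal day 21, and neither the age at sampling nor the sex is given. C57BL/6 is an inbred strain, and the labels name no allele and no agent other than the irradiation.

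Most of these genes are replication-dependent: they are transcribed in S phase, when new DNA has to be packed into nucleosomes, and their mRNA is removed when DNA synthesis stops. Their canonical mRNA carries no poly(A) tail and ends a few bases after a short stem-loop that the stem-loop binding protein SLBP recognises. Some members are also transcribed past the stem-loop into a polyadenylated form that is found in cells outside the cycle, and the capture used here starts from poly(A). Microglia in the healthy brain divide rarely. A core nucleosome holds H2A, H2B, H3 and H4, and H1 binds the DNA between nucleosomes.

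The stem-loops of 6 members are shown because SLBP binds there and the transcript either ends just after it or runs on, and because these members had most UMIs among those that run on (the first 4) and those that end there (the last 2). Each line gives the sense-strand DNA from 5′ to 3′ with 7 bases on each side where the annotated transcript reaches that far, and the capitals mark the 16 bases of the stem-loop.
Hist1h1c: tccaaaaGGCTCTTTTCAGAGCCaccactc
Hist3h2a: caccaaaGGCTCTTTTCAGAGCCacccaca
Hist1h1e: acccaaaGGCTCTTTTCAGAGCCacccaca
Hist4h4: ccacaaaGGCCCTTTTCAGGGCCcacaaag
Hist2h2aa1: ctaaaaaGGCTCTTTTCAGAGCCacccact
Hist1h2ap: aaaaaaaGGCTCTTTTCAGAGCCatc
In Hist1h1c the capitals lie at chr13:23739512-23739527 on the plus strand of GRCm38 (mm10), 24 bases after the stop codon. In Hist1h2ap they lie at chr13:21833029-21833044 on the minus strand, and the annotated transcript ends 3 bases later. The search for this histone stem-loop used the transcript strand only, and the bases of its arms had to pair. A match after the stop codon was found in 44 of the 67 members that could be matched to GENCODE vM21. Anywhere in a transcript, it was found in 69 of 21901 protein-coding genes, or 0.315%.

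The annotated 3′ end differed widely between members, and the UMIs were concentrated in those that run on past the stem-loop. UMIs are random tags added at capture, so that copies of 1 molecule are counted once. Of the 44 members with a stem-loop, 22 run at least 100 bases past it, among them Hist1h1c by 840 bases, Hist3h2a by 1643, Hist1h1e by 1153 and Hist4h4 by 2445. These 22 held 18896 UMIs over the 4 libraries, or 69.7% of all histone UMIs, with a median of 334 UMIs a member. The other 22 end within 100 bases of the stem-loop and held 3115 UMIs, or 11.5%, with a median of 44.5. A further 17 coding members without a stem-loop in the annotation end within 100 bases of the stop codon and held 715 UMIs, or 2.64%. The remaining 4 coding members run at least 100 bases past the stop codon without a stem-loop and held 4219 UMIs, or 15.6%, of which Hist1h2bc, whose annotated transcript has 2 exons, held 4074. The model of Hist1h1b ends at the stop codon. Reads beyond an annotated end would not be counted for that gene, and the part of this in the order of members was not tested.

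**Figure D1:**
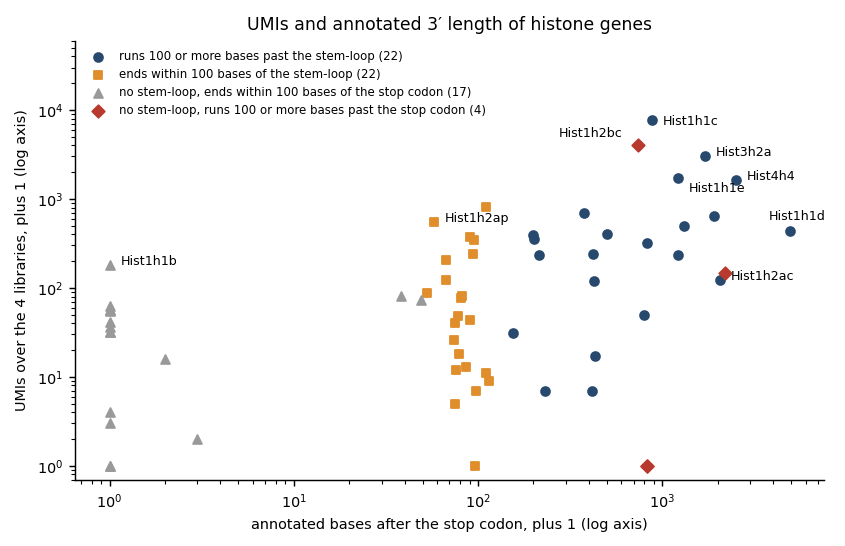
UMIs summed over the 4 libraries (y axis, plus 1, log scale) against the annotated bases after the stop codon (x axis, plus 1, log scale) for the protein-coding members that matched the annotation, with symbols for the kind of 3′ end. The members with most UMIs, Hist1h1c with 7696, Hist1h2bc with 4074 and Hist3h2a with 3052, all lie to the right, while members that end near the stem-loop stay at or below 811 UMIs.

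Of the 69 members, 64 had a UMI in the 8369 cells that passed the filter, 37 had at least 50 UMIs over the 4 libraries, 19 had 10 to 49, 8 had 1 to 9, and 5 had none. The libraries held 1582 to 2652 cells with a median of 3437 to 3594 UMIs a cell, and 5675117 to 9736149 UMIs in all. All 9 microglia markers checked were detected in each library, at a summed 39875 CPM (UMIs scaled to the same total in every library) in the irradiated library at 6 h and 47787 to 49926 CPM in the others. The part of this lower marker level in the results was not tested. The neutrophil markers were at 0 in 3 libraries and at 1 UMI in the irradiated library at 1 week. The summed level of 5 neural progenitor markers was 27.4 CPM in the irradiated library at 6 h, with Hes5 at 0, and at most 7.05 CPM in the others, with Dcx and Sox2 at 0. That of 5 astrocyte markers was 253 CPM against 142 to 180.3 CPM, and that of 4 oligodendrocyte precursor markers 6.92 CPM against at most 0.41 CPM. Cells that carry at least 4 of the 9 microglia markers gave a summed histone log2 fold at 6 h of -0.77, as all kept cells did. They were 2648 of 2652 cells of the sham and 1965 of 1986 of the irradiated library at 6 h. With nearly all cells kept, the fold could hardly change, and this says little about the markers of other cell types. A set of 39 barcodes among the kept cells occurred in more than 1 library, and without them that fold was also -0.77. In libraries of many cells, fewer cells with a transcript and less of it per cell cannot be told apart from sums.

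Microglia of the irradiated library at 6 h carried less captured histone mRNA than those of either sham library. At 1 week the summed level of the irradiated library was slightly above both, but without Hist1h1c it was level with the sham of 6 h. The members together gave 8859 UMIs in the sham library at 6 h, 3942 in the irradiated library at 6 h, 5752 in the sham library at 1 week and 8549 in the irradiated library at 1 week. Scaled to each library's total, these were 909.9 CPM (exact Poisson 95% interval 891 to 929), 535 CPM (519 to 552), 1014 CPM (988 to 1040.1) and 1108 CPM (1085 to 1132). The irradiated library at 6 h was thus lowest, 1.70-fold below its sham, with a log2 fold of -0.77 (exact conditional binomial 95% interval -0.82 to -0.71). Against the sham library at 1 week the log2 fold was -0.92 (-0.98 to -0.86). With 1 library a group there is no spread between replicates and no test, and all intervals cover counting error only.

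**Figure D2:**
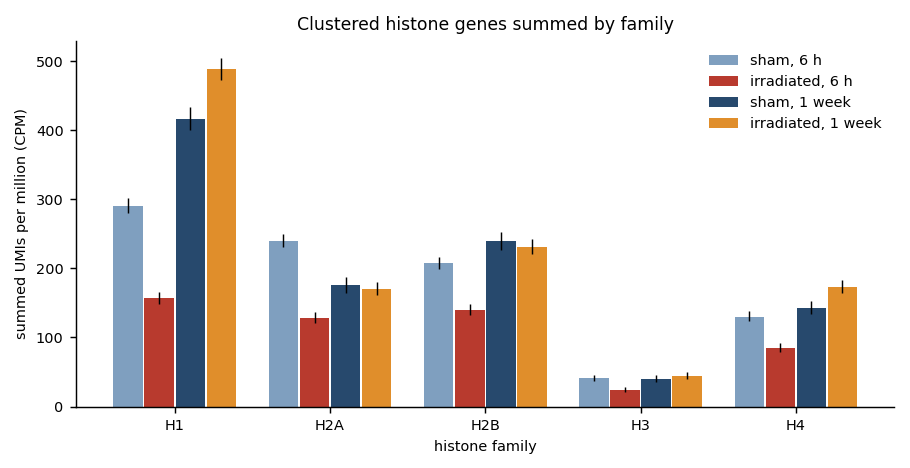
Summed CPM of the members of each histone family in the 4 libraries, with bars from 0 and error bars for the exact Poisson 95% interval of counting error. The irradiated library at 6 h is lowest in all 5 families, and H1 reaches 416 and 488 CPM in the libraries of 1 week.

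At 6 h, 30 members had at least 50 UMIs over the irradiated library and its sham, the number from which a fold is given. Of these, 21 were at least 1.5-fold lower and 1 was at least 1.5-fold higher in the irradiated library. Among all 9934 genes with as many UMIs, 9.31% were at least 1.5-fold lower and 8.97% at least 1.5-fold higher. The median member fold was -0.83 on the log2 scale against -0.06 for all genes, and 27 of the 30 lay below 0. Against the sham library at 1 week, 15 of 24 members were at least 1.5-fold lower (9.51% of all genes) and 1 was higher (11.8%), with a median of -0.70. Of the 24 members measured in both comparisons, 14 were at least 1.5-fold lower in each and 22 were below 0 in each. Both comparisons use the same irradiated library.

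The H1 linker histones, which close the nucleosome and compact the fibre, held 31.9% of histone UMIs in the sham library at 6 h and 41.1% in the sham library at 1 week. Their summed level at 6 h was 157 CPM after irradiation and 291 CPM in sham, a log2 fold of -0.89 (-0.99 to -0.79), and all 4 measured H1 members were at least 1.5-fold lower. UMIs are given from here on for the 4 libraries in 1 order, first both of 6 h and then both of 1 week, each with its sham before its irradiated library. Hist1h1c (chr13:23738808-23740367) gave 1964, 812, 1897 and 3023 UMIs. It had the most UMIs of all members in every library, at 202, 110.2, 334 and 391.8 CPM, and the irradiated library at 6 h is lowest. Its log2 fold at 6 h was -0.87 (-0.99 to -0.75) against the sham of 6 h and -1.60 (-1.72 to -1.48) against the sham of 1 week.

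Hist1h1e (chr13:23620629-23622558) gave 605, 275, 341 and 508 UMIs, with log2 folds at 6 h of -0.74 (-0.95 to -0.53) and -0.69 (-0.92 to -0.45) against the shams of 6 h and 1 week. Its annotated transcript overlaps that of Hist1h2be on the same strand, so UMIs may have been split or lost between them. Hist1h1d (chr13:23553262-23560686) gave 167, 45, 92 and 129 UMIs, with folds of -1.49 (-2.00 to -1.01) and -1.41 (-1.96 to -0.88). Both linker genes were lowest in the irradiated library at 6 h and close together in the other 3. Hist1h1b (chr13:21779883-21780625) behaved otherwise, with 68, 18, 13 and 79 UMIs. It was low in the irradiated library at 6 h and as low in the sham library at 1 week, at 2.44 and 2.29 CPM against 6.98 CPM in the sham of 6 h and 10.2 CPM in the irradiated library at 1 week. Hist1h1a gave 22, 6, 17 and 28 UMIs and was too sparse for a fold at 6 h.

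Among H2A genes, which with H2B form the dimers that sit outermost in the core particle, the summed level at 6 h was 129 CPM after irradiation and 239.9 CPM in sham, a log2 fold of -0.90 (-1.01 to -0.79), and 5 of 6 measured members were at least 1.5-fold lower. Hist3h2a (chr11:58954685-58956830), the H2A member with most UMIs, gave 1161, 598, 548 and 745 UMIs. Its fold of -0.55 (-0.70 to -0.41) stayed short of 1.5-fold, and against the sham of 1 week it was -0.25 (-0.42 to -0.08). Hist1h2ap (chr13:21833026-21833507) had the lowest fold of all members at 6 h. It gave 301, 57, 82 and 112 UMIs, a log2 fold of -2.00 (-2.43 to -1.59), and -0.90 (-1.41 to -0.40) against the sham of 1 week. Of its 50-base words, 93.1% also occur in transcripts of other genes, so UMIs may have been lost or misassigned between near-identical H2A copies.

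Hist2h2aa1, which ends 35 bases after its stem-loop, gave 354, 121, 149 and 187 UMIs and folds of -1.15 (-1.46 to -0.84) and -0.68 (-1.03 to -0.32). It shares 89.4% of its words with other genes. Hist2h2ac gave 117, 59, 84 and 86 UMIs, with folds of -0.59 (-1.06 to -0.12) and -0.89 (-1.39 to -0.39). Hist1h2ae gave 222, 56, 46 and 68 UMIs, a fold of -1.58 (-2.03 to -1.16) against the sham of 6 h but -0.09 (-0.68 to 0.50) against the sham of 1 week. For this gene the sham library of 6 h stood above the other 3 libraries. Hist1h2ac gave 54, 17, 23 and 29 UMIs and a fold of -1.26 (-2.14 to -0.46), and Hist1h2ak and Hist1h2an, with 16, 8, 20 and 17 and with 25, 11, 8 and 11 UMIs, had no fold.

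The H2B genes together gave 140.2 CPM after irradiation and 208 CPM in sham at 6 h, a log2 fold of -0.57 (-0.68 to -0.46), and -0.77 (-0.89 to -0.65) against the sham of 1 week. At 6 h 6 of 8 measured members were at least 1.5-fold lower than in sham and 1 was higher. The family sum rests on Hist1h2bc (chr13:23684199-23692908), which gave 1226, 735, 899 and 1214 UMIs and folds of -0.34 (-0.47 to -0.20) and -0.67 (-0.81 to -0.52). Hist1h2be gave 178, 71, 173 and 228 UMIs, lowest in the irradiated library at 6 h, with folds of -0.92 (-1.34 to -0.52) and -1.66 (-2.08 to -1.25). Hist3h2ba gave 89, 25, 60 and 57 UMIs with folds of -1.43 (-2.13 to -0.78) and -1.64 (-2.37 to -0.94). Both were lowest in the irradiated library at 6 h.

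Hist1h2bb gave 55, 12, 34 and 20 UMIs and a fold of -1.79 (-2.83 to -0.88). Hist1h2bg gave 163, 58, 47 and 81 UMIs, and Hist1h2bj gave 103, 38, 31 and 32. These last genes were at least 1.5-fold below the sham of 6 h, with -1.09 (-1.55 to -0.65) and -1.04 (-1.61 to -0.49), and near the sham of 1 week, with -0.07 (-0.65 to 0.51) and -0.08 (-0.81 to 0.65). Hist2h2be gave 50, 22, 29 and 44 UMIs, with -0.78 (-1.58 to -0.03) and -0.77 (-1.64 to 0.07). Hist1h2bp was the single member at least 1.5-fold higher after irradiation at 6 h. It gave 24, 33, 8 and 15 UMIs and a fold of 0.86 (0.06 to 1.68), on few UMIs. The 2 entries of Hist2h2bb gave 25, 3, 13 and 15 UMIs for the coding copy and 39, 9, 28 and 26 for the non-coding one, and Hist1h2bn gave 25, 9, 11 and 9, all without a fold at 6 h.

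H3 genes, whose protein carries the best known modified tail, were the least captured family, with 23.9 CPM after irradiation and 41.4 CPM in sham at 6 h and a log2 fold of -0.79 (-1.06 to -0.53). The 4 measured members split. Hist1h3a gave 125, 39, 87 and 125 UMIs and Hist1h3e gave 97, 22, 47 and 73, with folds of -1.28 (-1.84 to -0.75) and -1.74 (-2.48 to -1.06) against the sham of 6 h and -1.53 (-2.12 to -0.97) and -1.47 (-2.27 to -0.71) against the sham of 1 week. Hist2h3c1 gave 70, 57, 47 and 57 UMIs and Hist2h3c2 gave 40, 38, 18 and 24, with folds at 6 h of 0.11 (-0.42 to 0.63) and 0.33 (-0.35 to 1.01). Against the sham of 1 week they were at -0.10 (-0.68 to 0.49) and 0.70 (-0.14 to 1.60), the latter being the 1 member at least 1.5-fold higher there. Of their 50-base words, 100% for Hist2h3c1, 73.4% for Hist1h3e, 63.5% for Hist2h3c2 and 49.5% for Hist1h3a occur in other genes as well. Near the 3′ end of the transcript these shares were 100%, 100%, 0% and 35.2% in the same order. Shared sequence thus limits members on both sides of the split. Hist2h3b gave 37, 6, 13 and 24 UMIs, lowest in the irradiated library at 6 h, and had too few for a fold there.

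H4, which pairs with H3 in the core of the nucleosome, gave 85.4 CPM after irradiation and 130.2 CPM in sham at 6 h, a log2 fold of -0.61 (-0.75 to -0.47). All 8 measured members were below 0 and 4 were at least 1.5-fold lower. Hist4h4 (chr6:136801553-136804415), the single member of its cluster, gave 444, 210, 362 and 621 UMIs with folds of -0.68 (-0.92 to -0.44) and -1.16 (-1.41 to -0.91). Hist2h4 gave 114, 51, 112 and 212 UMIs with folds of -0.76 (-1.26 to -0.27) and -1.51 (-2.02 to -1.02). Both were lowest in the irradiated library at 6 h and highest in the irradiated library at 1 week.

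Hist1h4h gave 99, 35, 44 and 64 UMIs, with -1.10 (-1.70 to -0.53) and -0.71 (-1.39 to -0.03). Hist1h4i gave 237, 127, 128 and 208 UMIs, Hist1h4c gave 161, 81, 63 and 95, and Hist1h4d gave 103, 64, 59 and 93. Their folds against the sham of 6 h were -0.50 (-0.82 to -0.18), -0.59 (-0.99 to -0.19) and -0.28 (-0.76 to 0.18), so that of these Hist1h4c passed 1.5-fold, by a narrow margin. Against the sham of 1 week it was at -0.01 (-0.51 to 0.48). Hist1h4m gave 44, 26, 10 and 7 UMIs and Hist1h4n gave 30, 22, 10 and 13, with folds of -0.36 (-1.12 to 0.37) and -0.04 (-0.91 to 0.80). Of the 19 members with 10 to 49 UMIs in all, Hist1h3d gave 14, 7, 8 and 19 UMIs, Hist1h4b 24, 6, 8 and 9, and Hist1h2ad 9, 1, 10 and 22.

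**Figure D3:**
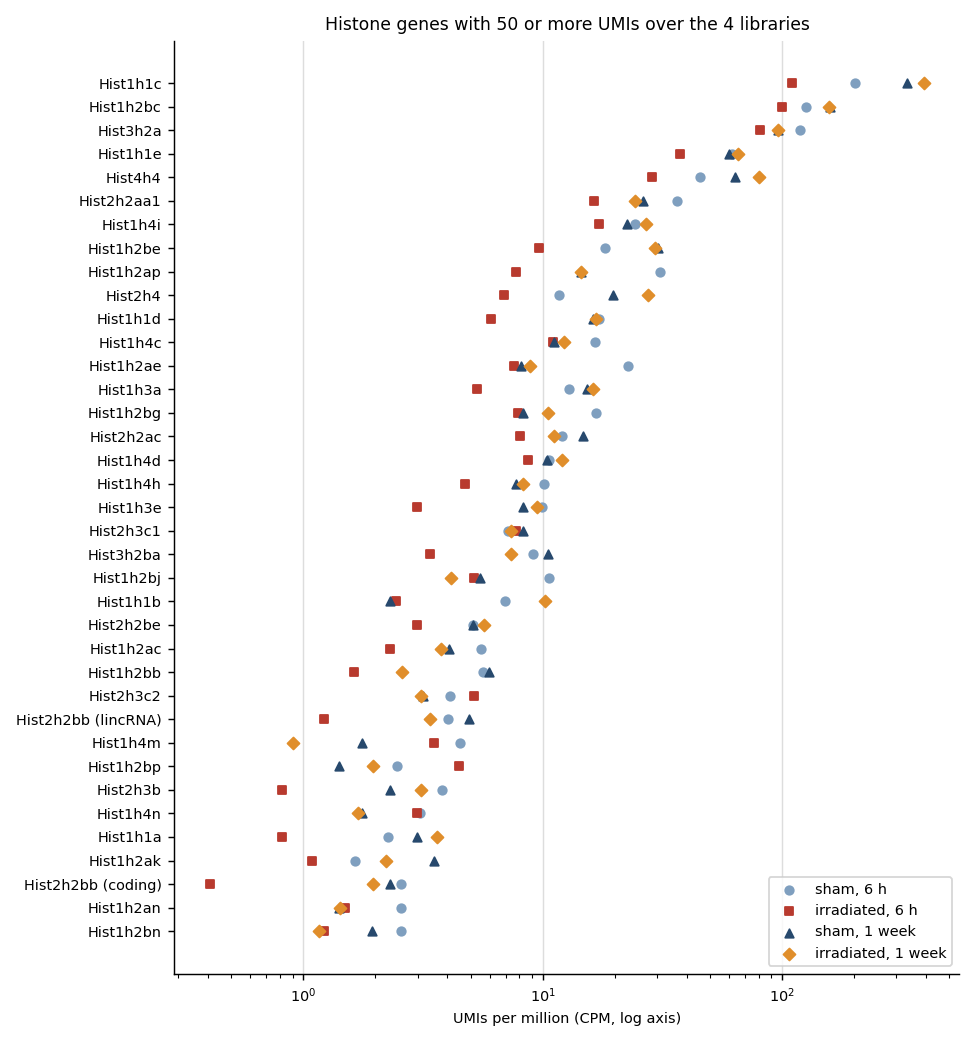
CPM on a log axis of the 37 members with at least 50 UMIs over the 4 libraries, ordered by their UMIs, with 1 symbol a library. The red squares of the irradiated library at 6 h lie left of the other symbols for most members, among them Hist1h1c at 110.2 CPM and Hist1h1d at 6.11 CPM.

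**Figure D4:**
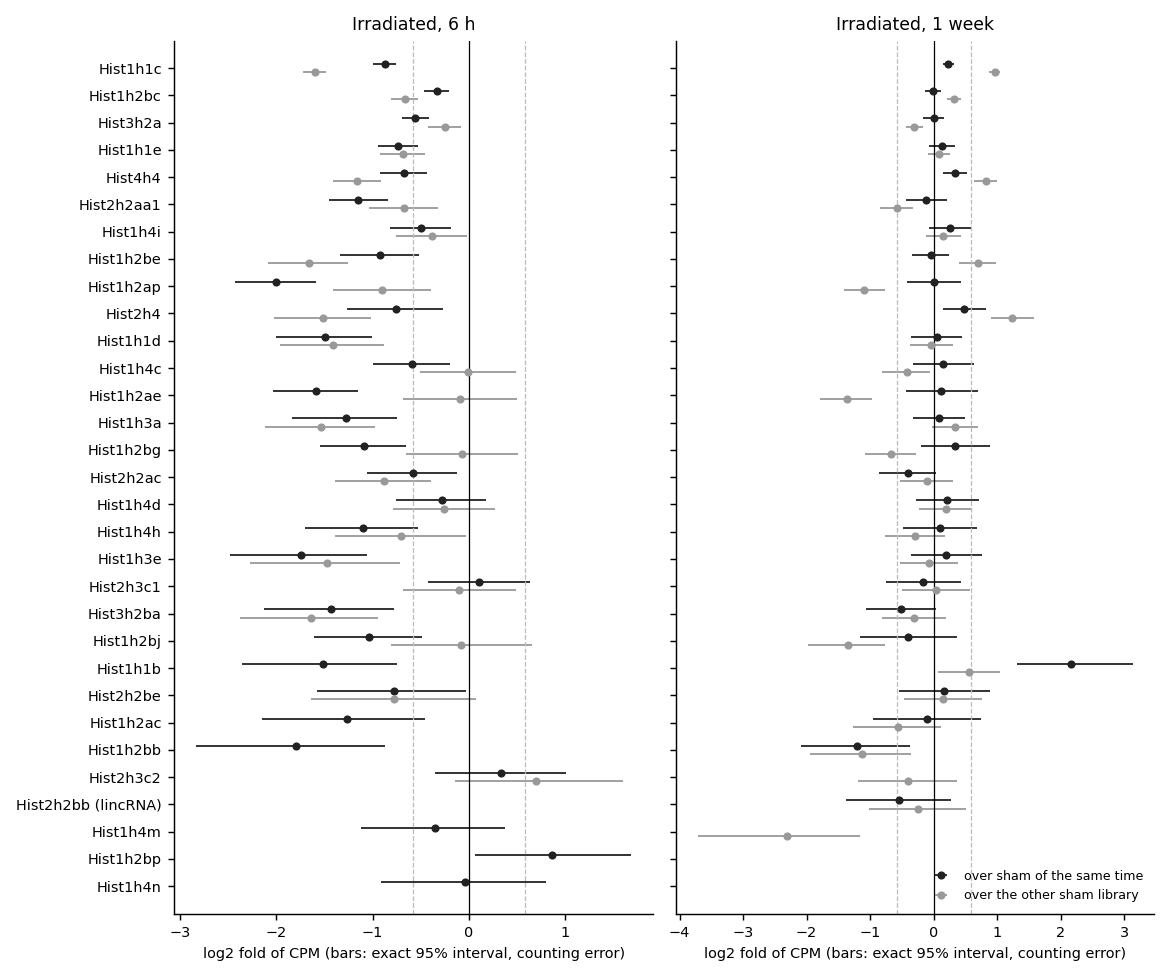
Log2 fold of each member at 6 h (left) and at 1 week (right) against the sham of the same time (black) and the other sham (grey), with exact 95% intervals of counting error and dashed lines at 1.5-fold. On the left 21 black points lie below the lower dashed line, and on the right Hist1h1b, at 2.16, is the black point above the upper line.

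By kind of 3′ end, the members that run past the stem-loop had a summed log2 fold at 6 h of -0.77 (-0.84 to -0.70), and those that end within 100 bases of it had -1.10 (-1.26 to -0.95). Against the sham library at 1 week the order was the other way, with -1.02 (-1.09 to -0.95) and -0.68 (-0.86 to -0.50). Both of these kinds were lower in the irradiated library at 6 h, and which of them was lower by more depended on the sham. Coding members without a stem-loop that end near the stop codon had -1.40 (-1.78 to -1.04) and -0.97 (-1.39 to -0.55) against the shams of 6 h and 1 week. Those that run on without a stem-loop, mostly Hist1h2bc, had -0.35 (-0.48 to -0.22) and -0.67 (-0.81 to -0.53).

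At 1 week the irradiated library differed little from its sham for most members. The summed log2 fold was 0.13 (0.08 to 0.18), and 0.08 (0.02 to 0.14) without Hist1h1c. Of 27 members measured, 1 was at least 1.5-fold higher (4.01% of all genes) and 1 at least 1.5-fold lower (3.12%), with a median log2 fold of 0.08 against 0.04 for all genes. H1 and H4 were the families above sham, with log2 folds of 0.23 (0.16 to 0.31) and 0.28 (0.15 to 0.41), while H2A stood at -0.04 (-0.16 to 0.08), H2B at -0.05 (-0.15 to 0.05) and H3 at 0.15 (-0.10 to 0.40). Against the sham library at 6 h the sum was 0.28 (0.24 to 0.33), but 0.02 (-0.04 to 0.07) without Hist1h1c. H1 was at 0.75 (0.68 to 0.82) and H2A at -0.49 (-0.59 to -0.39) against that sham. There, 5 of 31 members were at least 1.5-fold higher (3.81% of all genes) and 7 at least 1.5-fold lower (4.83%), with a median of -0.11. Hist1h2bb was the 1 member at least 1.5-fold apart in the same direction from both shams.

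Hist1h1b was the member 1.5-fold higher at 1 week, at 79 UMIs after irradiation and 13 in sham, a log2 fold of 2.16 (1.30 to 3.13), and 0.55 (0.07 to 1.04) against the sham of 6 h. Hist1h2bb was the lower one, at 20 and 34 UMIs and -1.21 (-2.08 to -0.37), and -1.12 (-1.94 to -0.36) against the sham of 6 h. Hist1h1c was at 0.23 (0.15 to 0.31), Hist4h4 at 0.34 (0.15 to 0.53) and Hist2h4 at 0.48 (0.14 to 0.82), all above sham but under 1.5-fold. Hist1h2ap, lowest of all at 6 h, was at 0.01 (-0.42 to 0.44), and Hist1h1d at 0.04 (-0.35 to 0.45).

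The sham libraries of 6 h and 1 week themselves differed in which histone genes they held, and this bears on every fold above. The sum was 0.16 (0.11 to 0.20) higher on the log2 scale at 1 week, but -0.06 (-0.12 to -0.00) without Hist1h1c. Of 30 members measured, 3 were at least 1.5-fold higher in the sham library at 1 week (2.89% of all genes) and 7 at least 1.5-fold lower (4.89%). The higher ones were Hist1h1c, with 0.73 (0.64 to 0.82), Hist1h2be, with 0.74 (0.43 to 1.05), and Hist2h4, with 0.75 (0.36 to 1.14). The lower ones were Hist1h1b, with -1.61 (-2.59 to -0.74), Hist1h2ae, with -1.49 (-1.98 to -1.03), Hist1h4m, with -1.36 (-2.51 to -0.35), Hist1h2ap, with -1.10 (-1.47 to -0.74), Hist1h2bg, with -1.02 (-1.52 to -0.54), Hist1h2bj, with -0.95 (-1.58 to -0.36), and Hist2h3b, with -0.73 (-1.77 to 0.21). As families, H1 was higher at 1 week, at 0.52 (0.44 to 0.60), and H2A lower, at -0.45 (-0.56 to -0.34). Time after sham handling and the library itself cannot be told apart.

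Histone UMIs were then separated into those of cells with at least 1 UMI of Top2a or Mki67, genes of the late cell cycle, and those of all other cells. Such cells, called cycling here, were 21 of 2652 in the sham library at 6 h, 11 of 1986 in the irradiated library at 6 h, 7 of 1582 in the sham library at 1 week and 43 of 2149 in the irradiated library at 1 week, or 0.792%, 0.554%, 0.442% and 2.00%. The call rests on as little as 1 UMI, and with at least 2 UMIs the numbers were 16, 5, 3 and 33. Cycling cells were deeper, with medians of 4521 to 5745 UMIs against 3419 to 3592 in the other cells. Their microglia markers summed to 26068 to 44069.6 CPM, and 21 of 21, 10 of 11, 7 of 7 and 43 of 43 of them held at least 4 of the 9 markers.

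Cycling cells held more histone mRNA, as CPM, than other cells in 3 of the 4 libraries, but only a small share of all histone UMIs. The level was 3637 CPM in cycling and 873 CPM in other cells of the sham library at 6 h, 1215 and 531 CPM in the irradiated library at 6 h, 1125 and 1013 CPM in the sham library at 1 week, and 1856 and 1082 CPM in the irradiated library at 1 week. The log2 ratios were 2.06 (1.92 to 2.19), 1.19 (0.79 to 1.57), 0.15 (-0.32 to 0.58) and 0.78 (0.64 to 0.91). Cycling cells supplied 467, 57, 43 and 479 histone UMIs, or 5.27%, 1.45%, 0.748% and 5.60% of each library's. In the irradiated library at 6 h, the 10 cycling cells with at least 4 microglia markers held 46 histone UMIs, at 1002 CPM. In cells without Top2a or Mki67 the summed log2 fold at 6 h was -0.72 (-0.77 to -0.66) and at 1 week 0.10 (0.05 to 0.14), close to the values in all cells.

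Of members with at least 50 UMIs in a library, 22 of 26 were at least 1.5-fold higher in cycling cells of the sham library at 6 h (23.4% of all genes), 9 of 16 in the irradiated library at 6 h (26.2%), 10 of 16 in the sham library at 1 week (22.8%) and 13 of 22 in the irradiated library at 1 week (23.3%). With so few cycling cells 1 UMI can put a sparse member past 1.5-fold: 2, 5, 6 and 0 of the members counted as higher rest on 1 or 2 UMIs in cycling cells, so the counts of the irradiated library at 6 h and the sham library at 1 week say little. Hist1h1b stood at 1 end. In the sham library at 6 h 45 of its 68 UMIs, and in the irradiated library at 1 week 65 of its 79, came from cycling cells, which was 350.4 CPM against 2.39 CPM and 252 CPM against 1.88 CPM. In the other libraries it was 4 of 18 and 3 of 13 UMIs. Outside cycling cells Hist1h1b was at 2.39, 1.91, 1.77 and 1.88 CPM, which are close together, while its level over all cells differed between libraries. The 65 UMIs came from 21 of the 43 cycling cells, and no cell of that library held more than 9.

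Other H2A and H1 genes also had a large share of their UMIs in cycling cells. Hist1h2ap had 78 of 301 UMIs in cycling cells of the sham library at 6 h and 32 of 112 in those of the irradiated library at 1 week, or 25.9% and 28.6%. Hist1h1d had 13.8% and 19.4% there, and Hist1h2ae 14.4% and 20.6%. Without cycling cells the fold of Hist1h2ap at 6 h was -1.71 (-2.17 to -1.27) and that of Hist1h1d -1.42 (-1.96 to -0.91).

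Toward the other end were several of the members with most UMIs, but not all. Hist1h1e had 34 of 605 UMIs in cycling cells of the sham library at 6 h and 32 of 508 in those of the irradiated library at 1 week. Its level in the other cells of these libraries was 59.4 and 63.8 CPM, below its 62.1 and 65.8 CPM over all cells. Hist1h1c was 2.36-fold higher in cycling cells of the sham library at 6 h, at 467 and 198 CPM, but lower in those of the irradiated library at 1 week, at 252 and 397 CPM with a log2 ratio of -0.66 (-1.03 to -0.30). Hist3h2a had 7 of 1161 UMIs and Hist1h2bc 11 of 1226 UMIs in cycling cells of the sham library at 6 h, with log2 ratios of -1.14 (-2.46 to -0.09) and -0.56 (-1.57 to 0.28). In the irradiated library at 1 week the ratios were -0.66 (-1.47 to 0.05) and 0.12 (-0.35 to 0.55). Hist4h4 was at 0.26 (-1.06 to 1.32) and -0.59 (-1.47 to 0.17) in these libraries.

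**Figure D5:**
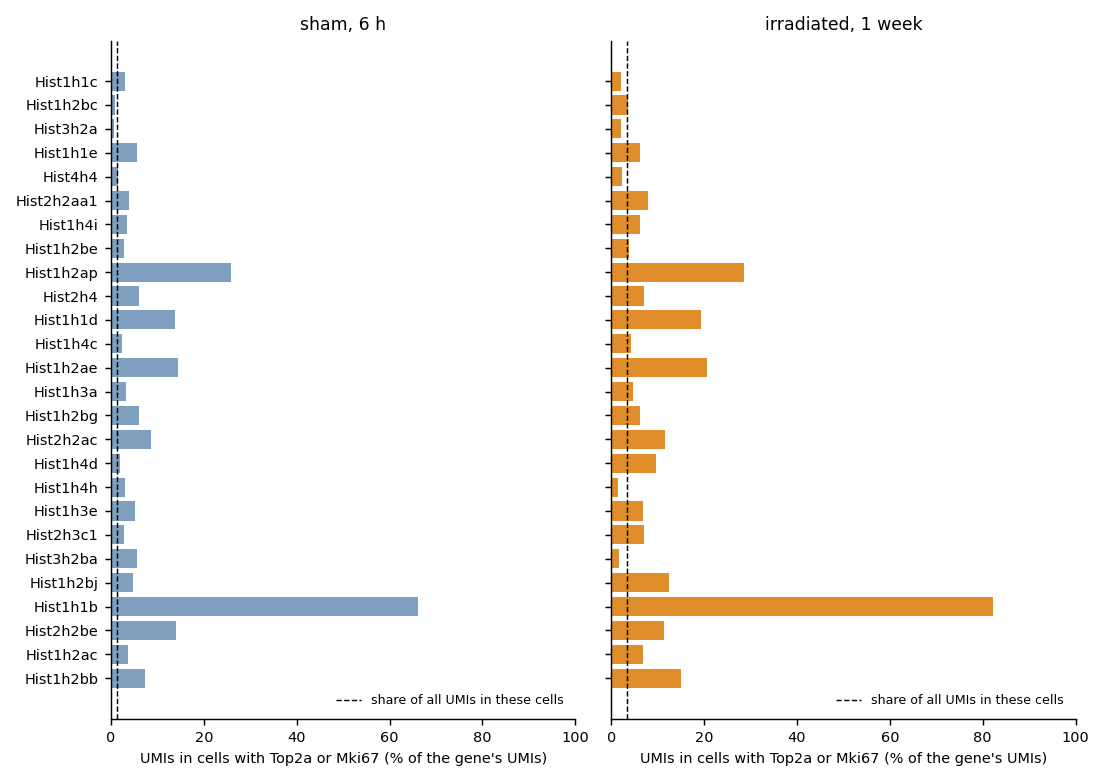
Percent of each member's UMIs that came from cells with Top2a or Mki67 in the sham library at 6 h (left) and the irradiated library at 1 week (right), for the 26 members with most UMIs. The dashed lines give the share of all UMIs from these cells. Hist1h1b reaches 66.2% and 82.3%, Hist1h2ap 25.9% and 28.6%, and Hist1h1c 3.05% and 2.15%.

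Cell by cell, the lower level at 6 h was spread over the cells. With each cell thinned to 2000 UMIs, which left out 93, 90, 189 and 109 shallower cells, the mean was 1.89, 1.12, 2.10 and 2.26 histone UMIs a cell. In the same order, 26.1%, 41.8%, 22.7% and 23.2% of thinned cells had no histone UMI, and before thinning 13.4%, 26.4%, 12.5% and 12.4%. At least 5 histone UMIs were found in 8.48%, 2.95%, 10.9% and 14.1% of thinned cells. The cell with most histone UMIs held 55 in the sham library at 6 h and 76 in the irradiated library at 1 week, both cycling, and 28 and 33 in the other libraries, neither cycling. Of the 10 cells with most histone UMIs, 9 were cycling in the sham library at 6 h and 5 in the irradiated library at 1 week, and 0 in each of the others.

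Histone CPM was higher in the shallower cells of each library, at 1032 and 831 CPM for the shallower and deeper cells of the sham library at 6 h and 644 and 468 CPM for those of the irradiated library at 6 h, so the difference at 6 h was present at both depths. Cdkn1a encodes p21, an inhibitor of the cycle that p53 induces after DNA damage. In the irradiated library at 6 h 1938 of 1986 cells had a Cdkn1a UMI, with 537 histone CPM, and the 48 cells without had 431 CPM (327 to 559). In the irradiated library at 1 week the 1959 cells with it had 1132 histone CPM (1107 to 1157) and the 190 without had 865 CPM (797 to 938). The median depths of cells with and without Cdkn1a were 3532.5 and 2649 UMIs in the irradiated library at 6 h. In the irradiated library at 1 week they were 3427 and 3523.5 UMIs. In the sham libraries cells with and without Cdkn1a had 1045 and 893 CPM at 6 h and 906 and 1027 CPM at 1 week, so the sign of the difference varied between libraries. Their median depths were 3850 and 3507 UMIs at 6 h and 4024 and 3566 UMIs at 1 week. The part of depth in these differences was not tested.

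The promoters of 3 members are shown, from the RefSeq table of GRCm38.p6, because these genes lie in the same cluster and differed in the results. Most UMIs of Hist1h1b came from cycling cells in 2 libraries, Hist1h1c had the most UMIs, and Hist1h2ac shares its upstream region with Hist1h2bc. Each runs from 250 bases before to 50 bases after the start, 5′ to 3′ in the gene's direction. Capitals mark CCAAT, the box bound by the factor NF-Y, then TATAAA, the box bound by the TATA-binding protein, then AAACACA, known from H1 promoters, and ATTTGCAT, the octamer bound by POU factors, each on either strand.
Hist1h1b: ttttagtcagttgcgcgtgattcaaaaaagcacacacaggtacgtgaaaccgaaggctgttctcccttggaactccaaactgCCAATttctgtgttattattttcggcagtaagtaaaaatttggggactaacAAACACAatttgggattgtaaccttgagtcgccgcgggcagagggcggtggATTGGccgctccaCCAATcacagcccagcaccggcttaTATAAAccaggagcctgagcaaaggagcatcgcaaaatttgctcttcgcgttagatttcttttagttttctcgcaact
Hist1h1c: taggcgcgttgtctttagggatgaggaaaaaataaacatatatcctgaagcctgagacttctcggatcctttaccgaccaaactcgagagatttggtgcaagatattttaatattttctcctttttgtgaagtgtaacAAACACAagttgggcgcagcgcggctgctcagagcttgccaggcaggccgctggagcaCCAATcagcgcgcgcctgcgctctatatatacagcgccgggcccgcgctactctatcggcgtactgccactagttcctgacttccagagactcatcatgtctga
Hist1h2ac: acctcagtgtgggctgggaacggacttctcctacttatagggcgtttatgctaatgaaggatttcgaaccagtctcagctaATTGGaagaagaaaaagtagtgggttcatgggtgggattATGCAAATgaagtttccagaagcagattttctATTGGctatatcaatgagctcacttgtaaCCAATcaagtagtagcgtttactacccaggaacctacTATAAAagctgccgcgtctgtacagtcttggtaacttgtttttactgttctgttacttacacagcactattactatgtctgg
These windows are chr13:21780576-21780875 on the minus strand, chr13:23738557-23738856 on the plus strand and chr13:23683910-23684209 on the minus strand. Both H1 windows hold CCAAT and AAACACA, and TATAAA is found in the first only.

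Promoters were found for 62 of the 69 members. CCAAT stood in 53 of them, or 85.5%, against 37.9% of all 27025 promoters of the same length, and TATAAA in 35, or 56.5%, against 14.2%. By family, CCAAT was found in every H1, H2A, H2B and H3 promoter with an entry and in 3 of 12 H4 promoters. AAACACA was found in 5 of 6 H1, 2 of 17 H2A and 2 of 17 H2B promoters and in no H3 or H4 promoter, against 7.14% of all. ATTTGCAT was found in 7 of 17 H2A and 8 of 17 H2B promoters and in no H1, H3 or H4 promoter, against 1.75% of all. Both entries of Hist2h2bb have the same window, which holds CCAAT and ATTTGCAT and was counted under each. The motifs thus differ by family, and a match is a description of letters only.

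H2A and H2B genes often start back to back, and 12 such pairs with starts within 1000 bases were found, with 24 members. The partners differed widely in some pairs and little in others. Hist1h2ac and Hist1h2bc start 251 bases apart and gave 123 and 4074 UMIs, 33.1-fold apart, while Hist1h2ae and Hist1h2bg, 176 bases apart, were 1.12-fold apart. In the first pair Hist1h2ac has a stem-loop 32 bases after its stop codon, and its annotated transcript runs 2010 bases past it. The annotated Hist1h2bc transcript has no stem-loop and runs 742 bases past its stop codon. The part of the 3′ end in the difference between these genes was not tested. UMIs of different genes are set side by side here as captured molecules, not as transcript levels, since capture depends on the 3′ end. By the cluster in the symbol, Hist1 held 55 members and 71.1% of histone UMIs in the sham library at 6 h, Hist2 on chromosome 3 held 11 members and 9.82%, Hist3 on chromosome 11 held 2 and 14.1%, and Hist4 on chromosome 6 held 1 and 5.01%. At 6 h their summed log2 folds were -0.80 (-0.86 to -0.73), -0.83 (-1.01 to -0.65), -0.60 (-0.74 to -0.46) and -0.68 (-0.92 to -0.44), so the lower level was found in every cluster.

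Most histone genes outside the clusters make polyadenylated mRNA and are not tied to S phase. Of 9 measured at 6 h, 1 was at least 1.5-fold higher (8.97% of all genes) and 2 were lower (9.31%). The median log2 fold of the 9 was -0.29. H2afj, an H2A variant gene, gave 775 UMIs in sham and 1996 after irradiation at 6 h, a log2 fold of 1.77 (1.65 to 1.89), and 399 and 841 UMIs at 1 week, a fold of 0.63 (0.46 to 0.81). Against the other sham library these folds were 1.95 (1.79 to 2.11) and 0.45 (0.31 to 0.60). Cenpa, the H3 variant of the centromere, was lower at 6 h, with -1.20 (-1.80 to -0.62), and higher at 1 week, with 1.29 (0.73 to 1.89). H2afx, the variant phosphorylated at DNA breaks, did likewise, with -0.72 (-1.02 to -0.42) and 0.99 (0.65 to 1.34). Against the other sham library neither passed 1.5-fold: Cenpa was at -0.38 (-1.11 to 0.35) at 6 h and 0.47 (0.07 to 0.87) at 1 week, and H2afx at 0.07 (-0.32 to 0.45) and 0.20 (-0.04 to 0.45). H3f3b, an H3 variant gene with far more UMIs than any clustered member, was at -0.01 (-0.04 to 0.02) at 6 h and 0.08 (0.05 to 0.12) at 1 week, and at -0.42 (-0.45 to -0.38) and 0.49 (0.46 to 0.52) against the other sham.

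Genes that transcribe and process histone mRNA were mostly near sham. Of 18 measured at 6 h, none was at least 1.5-fold higher (8.97% of all genes) and 1 was lower (9.31%). This was Lsm11, a subunit of the U7 particle that cuts histone pre-mRNA, with -0.90 (-1.52 to -0.31). At 1 week none was at least 1.5-fold higher (4.01% of all genes) or lower (3.12%). Against the other sham library 1 of 18 was higher (11.8% of all genes) and 1, Lsm11 at -0.61 (-1.31 to 0.09), lower (9.51%) at 6 h. At 1 week 1 of 19 was higher there (3.81% of all genes), Ccne2 at 1.86 (1.01 to 2.78), and 1 lower (4.83%), Cstf2 at -0.73 (-1.21 to -0.26). Slbp, the stem-loop binding protein gene, was at -0.33 (-0.47 to -0.18) and 0.36 (0.20 to 0.52), and Npat, the activator at histone loci, at 0.21 (-0.36 to 0.79) and 0.48 (-0.18 to 1.17). Of 22 histone chaperone genes, which escort histones to DNA, 2 were higher and 2 lower at 6 h. Both counts were near the shares of all genes, 8.97% and 9.31%. Asf1b was at -1.32 (-2.12 to -0.58), Hjurp at -0.80 (-1.04 to -0.56), Dnajc9 at 0.99 (0.68 to 1.31) and Ipo4 at 0.80 (0.42 to 1.18). At 1 week Asf1b, with 1.59 (0.86 to 2.40), and Dnajc9, with 0.85 (0.44 to 1.27), were higher (4.01% of all genes) and none was lower (3.12%). Against the other sham library 3 of 21 were higher (11.8% of all genes) and 1 lower (9.51%) at 6 h. Hjurp was at -0.50 (-0.78 to -0.22), Dnajc9 at 1.24 (0.84 to 1.65) and Ipo4 at 0.64 (0.22 to 1.09). At 1 week 2 of 23 were higher (3.81% of all genes) and none lower (4.83%) there. Asf1b, at 0.58 (0.08 to 1.07), was short of 1.5-fold and Dnajc9 was at 0.60 (0.27 to 0.93).

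The S phase list holds genes of S phase, among them those of DNA synthesis, which replication-dependent histones are known to accompany. Slbp, also among the processing genes, and Chaf1b, also among the chaperones, are in it, so these lists overlap. At 6 h it gave 7 lower (9.31% of all genes) and 1 higher (8.97%) of 17 measured, with a median log2 fold of -0.50. At 1 week it gave 9 higher (4.01%) and none lower (3.12%) of 19, with a median of 0.58. Against the other sham library it was 4 lower (9.51%) and none higher (11.8%) of 15 at 6 h, with a median of -0.16. At 1 week it was 8 higher (3.81%) and none lower (4.83%) of 22 there, with a median of 0.47. Mcm6, of the replicative helicase, was at -1.16 (-1.68 to -0.66) and 1.10 (0.63 to 1.60), and at -0.53 (-1.14 to 0.08) against the other sham at 6 h. The other lower genes at 6 h were Gins2 at -1.05, Rrm1 and Rrm2 at -1.01, Mcm5 at -0.93 and Rpa2 and Mcm7 at -0.60. Higher at 1 week were Prim1 at 1.19, Mcm2 at 0.99, Mcm5 at 0.97, Pola1 at 0.88, Tyms at 0.86, Gins2 at 0.70 and Mcm4 at 0.60. Pcna, the sliding clamp and also a p53 target, was the higher one at 6 h, at 0.64 (0.47 to 0.81). Rrm2, of ribonucleotide reductase, gave 48 and 18 UMIs at 6 h, and 0 and 92 UMIs at 1 week. Summed over its 26 genes, the S phase list was at -0.18 (-0.25 to -0.11) at 6 h and 0.50 (0.43 to 0.58) at 1 week. Against the other sham library these sums were -0.06 (-0.14 to 0.03) and 0.38 (0.32 to 0.45). The sum of the clustered members at 6 h was -0.77 against its own sham and -0.92 against the other. The median of the clustered members at 1 week was 0.08, and the difference between these lists was not tested.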

How the data were processed

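The values are UMI counts, unnormalised, from 4 matrices deposited by the authors, who made them with Cell Ranger 2.0 on mm10, per the submitters' processing notes. The annotation release was not given in the sources used here, nor was the strand setting. Barcodes were kept from 1000 UMIs, 500 genes and at most 10% mitochondrial UMIs, which left 8369 of 8486. Doublets were not removed: Scrublet (scanpy 1.11.5, expected rate 0.06) marked 45 kept cells, 0.538%, and was used as an alternative. Counts were summed per library and scaled to its total (CPM) with Python 3.11.15, numpy 2.4.6, pandas 2.3.3 and scipy 1.17.1, and figures were drawn with matplotlib 3.10.9. A fold carries the exact conditional binomial 95% interval and is given from 50 UMIs over a comparison. A count is called different from 1.5-fold. No fold is printed against a library at 0. On simulated counts the intervals held the true fold for 95.6% of 9934 genes at 6 h and 95.9% of 9518 at 1 week, and 98% of 2-fold genes passed 1.5-fold at each time.

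Members with at least 50 UMIs over the 4 libraries are named with their UMIs, and context genes where at least 1.5-fold apart, at most 8 a list by size of fold. Slbp, Npat and H3f3b, and the sparser members given, were named for their role or after their values were seen. The members and lists were chosen with earlier results of these data known. Stem-loops and coordinates come from GENCODE vM21 (GRCm38), promoters from RefSeq (GRCm38.p6). The 3′ ends and overlaps of annotated genes were read there too: 8 of 67 members overlap another gene on their strand and 23 on the other, and 13 of 37 with at least 50 UMIs share at least 50% of their 50-base words with other genes. Each alternative in the closing section changed 1 choice, except that stricter cells (2000 UMIs, 1000 genes, 5% mitochondrial) and the cycling call after thinning changed several together. Proteins were not analysed here, nor were times other than 6 h and 1 week.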

Additional observations from a re-analysis of the deposited data

Results flagged for a closer look

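Hist1h1b moved in opposite directions at the 2 times, with log2 folds of -1.52 at 6 h and 2.16 at 1 week, each against the sham of its own time and each with its interval apart from 0. The difference between the 2 folds was not tested. The UMIs behind them were 68 and 18 at 6 h and 13 and 79 at 1 week, and 45, 4, 3 and 65 of these came from cells with Top2a or Mki67. The irradiated library at 6 h and the sham library at 1 week, with 18 and 13 UMIs, hold too few for a fold between them.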

How the results depend on the processing

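The histone sum at 6 h was -0.70 on the log2 scale under median-ratio scaling and -0.92 against the other sham. Members lower at 6 h numbered 32 from a minimum of 20 UMIs, 10 from 200 UMIs and 13 at 2-fold, and members higher 0 both from 200 UMIs and at 2-fold. At 1 week the sum was 0.28 against the other sham and 0.0762 without Hist1h1c. Members higher numbered 5 against the other sham, 3 from 20 UMIs and 0 from 200 UMIs, and members lower 7, 3 and 0. Between the sham libraries the sum was -0.0601 without Hist1h1c, the other way, and 0.21 without cycling cells. There, 0 members were higher at 2-fold, and 11 and 3 were lower from 20 and 200 UMIs. How many members are measured changes with the minimum. The share of all genes was not taken at the other minima or at 2-fold, so these counts give no rate.

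The log2 ratio of histone levels in cycling over other cells of the sham library at 6 h was 2.33 from 2 UMIs of Top2a and Mki67, 2.33 after thinning to 2000 UMIs, and 2.50 with the call made after thinning. In the irradiated library at 6 h it was 1.59 in all barcodes, and in the sham library at 1 week 0.61 with the call made after thinning. With a UMI of the S phase list as the call, which took 1804 of 2652 cells of the sham library at 6 h, it was 0.0380 there, 0.0702 in the irradiated library at 6 h, and the other way at 1 week, -0.106 in the sham and -0.0750 in the irradiated library. Against the other sham Hist1h1b at 6 h was 0.0933 (-1.02 to 1.24) on 18 and 13 UMIs, under the minimum of 50 and too few to give a direction. The cause was not tested. Calling after thinning and leaving out shared barcodes were chosen after seeing the data. The other 110 values of sums, medians and ratios stayed within the interval of the value reported, and counts within 1.5 times. Of these, 2 had the other sign, the ratio of -0.106 above and the median at 1 week against the other sham, -0.11. For single members and other counts 662 stayed likewise, 21 of them with the other sign, and 29 moved, 26 under the other sham. No paired analysis was possible because each group was 1 library. Depth limits members under 50 UMIs.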
